A study of Mus musculus with 52 samples.

Results

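Clone G7 is one of 4 ciliated control clones in a series that measured gene expression by RNA sequencing in mouse kidney cells with missense alleles of Wdr34 or Wdr60, which encode intermediate chains of the ciliary motor dynein-2. Its 4 libraries were picked by clone name from the labels and compared with the 12 libraries of the other ciliated controls, D8, H12 and A4, so that 16 of the 52 libraries of the series carry the comparison. All 16 libraries come from Cilia-APEX-IMCD3 cells, a derivative of the mouse inner medullary collecting duct line IMCD3. These cells received the cytidine base editor BE4-Gam together with a guide RNA vector that lacked a target oligonucleotide, were sorted as single cells and were expanded, so neither gene was targeted in any of the 4 clones. Each clone therefore descends from 1 cell, and its 4 libraries are technical replicates of that clone. Ciliogenesis was induced by serum starvation according to the study's methods. The labels state 10% serum for every library.

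Collecting duct cells are a polarised epithelium that arises from the ureteric bud. Neighbouring cells are held together by E-cadherin and by tight junctions, rest on a laminin sheet through integrins and carry keratin filaments, and the transcription factors Pax2 and Pax8 mark the renal lineage. Repressors of the Zeb and Snail families switch off junction genes when epithelial cells take on a mesenchymal character, whereas Grhl2, Elf3, Ehf and the splicing factor Esrp1 maintain the epithelial programme.

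Levels are given as counts per 1000000 counts of a library (CPM) after TMM scaling. A gene was called where the adjusted p of edgeR's quasi-likelihood test was under 0.05 and the log2 fold change was at least 1 in size, with G7 minus the others as the direction throughout. The p-values measure only the spread between libraries, since G7 is a single clone, and an exact permutation over clones, 1 against 3, could not give a p below 0.25. In bulk RNA fewer cells of a kind and less RNA per cell cannot be told apart.

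Total counts were 16052187, 16549441, 16093044 and 28084979 in the 4 G7 libraries and 14816218 to 20038499 in the others. G7 library 4 was thus the deepest of the 16, and it also had the highest share of counts in ribosomal protein genes among the G7 libraries, 1.26% against 0.769% to 0.842% in the first 3 and 0.984% to 1.27% in the others. Between 13476 and 14123 genes were detected per G7 library and between 13862 and 14358 per other library. The mean correlation of log2 CPM with libraries of the other control clones was 0.876 to 0.879 for G7 and 0.920 to 0.934 for D8, H12 and A4, against 0.981 to 0.992 within a clone. No pair of replicate libraries was near-identical, as the chi-square per degree of freedom between them was at least 2.36. It reached 68.8 between G7 libraries 2 and 4 and 58.6 between A4 libraries 1 and 3, so libraries of a clone differed by more than counting error. Wdr34, the first gene edited elsewhere in the series, was at 26.2, 27.5, 29.5 and 42.7 CPM in G7 and 39.7 to 48.99 CPM in the others (log2 fold change -0.47 ± 0.11 SE, adjusted p = 0.00163 in edgeR's test, not called), and Wdr60 was at 21.04, 21.5, 20.7 and 25.4 CPM against 22.9 to 28.1 CPM.

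Of 12325 genes tested, 649 (5.27%) were higher and 1592 (12.9%) lower in G7. Against each of the other clones taken singly, in a fit with a mean for every clone, 412 genes (3.34%) were higher and 974 (7.9%) lower in all 3 contrasts. With the size limit, lower genes outnumbered higher ones in every contrast, with 1813 lower and 1073 higher than in D8, 1462 lower and 678 higher than in H12, and 1566 lower and 984 higher than in A4. On the adjusted p alone 3296 genes were lower and 3150 higher, and 2207 lower and 2236 higher against each clone. Over the 7 ciliated clones of the series, mutants included, G7 lay below all 6 others by at least 1 log2 unit for 637 of 12678 genes (5.02%) and above them for 96 (0.757%). Each of the other 6 clones lay below all the rest for 14 to 65 genes and above them for 10 to 260. These distances are a description without a test. Calls were fewer when the libraries of a clone were summed, with 91 genes higher and 242 lower, and when the clone was a block in voomLmFit, with 532 higher and 727 lower.

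Among 37 gene lists, epithelial adhesion genes had the largest share of lower members. Of 48 tested members of the list of adhesion, tight junction and keratin genes, 40 were lower in G7 and 2 higher. Over all genes 12.9% were lower and 5.27% higher. Of the 40, 35 were lower than each of the 3 clones, as were 7.9% of all genes. The median log2 fold change was -3.38 against -0.0038 for all genes. With the clone as a block 37 members were lower, and with libraries summed 25 were. Epcam, an adhesion molecule of simple epithelia, was at 14.96, 11.98, 13.2 and 14.7 CPM in the G7 libraries and at 623 to 883 CPM (median 746) in the 12 others. All 4 G7 libraries therefore lay far below the lowest of the others, 53.8-fold in the means (log2 fold change -5.77 ± 0.14 SE, adjusted p = 2.70e-15 in edgeR's test). Cdh1 (chromosome 8, 106603350 to 106670247), the gene of E-cadherin, was at 14.02, 15.9, 17.95 and 10.9 CPM in G7 against 589 to 674 CPM (median 630.1). The spread of Cdh1 among D8, H12 and A4 was narrow, and G7 differed from them by -5.45 ± 0.13 SE on the log2 scale (adjusted p = 1.51e-15 in edgeR's test).

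Of the tight junction genes described here, Cldn4, Cldn7 and Ocln were lower in G7 and Cldn1 was higher. The claudin gene Cldn4, which helps to seal the collecting duct, was at 2.67, 2.78, 3.53 and 4.52 CPM in G7 and 457 to 1964 CPM (median 1581) in the others, a 374-fold difference in the means (log2 fold change -8.55 ± 0.70 SE, adjusted p = 1.81e-08 in edgeR's test). Among the others H12 was lowest, at a mean of 483 CPM, still above all G7 libraries. Cldn7, another claudin of tight epithelia, was at 4.28, 3.69, 4.52 and 3.61 CPM against 179.6 to 338 CPM (median 256), and Ocln, which encodes occludin of the junction strand, at 1.24, 0.787, 1.18 and 1.23 CPM against 70.1 to 95.1 CPM (median 79.6). The ranges of G7 and of the others did not overlap for either gene, and the log2 fold changes were -6.002 ± 0.23 and -6.19 ± 0.14 SE. Cldn1 was one of the 2 higher members of the adhesion list, at 74.5, 78.1, 62.3 and 49.8 CPM against 1.62 to 29.9 CPM (log2 fold change 2.38 ± 0.55 SE, adjusted p = 0.00162 in edgeR's test). Its level also differed among the other clones, from 2.65 CPM in A4 to 25.7 CPM in D8.

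The keratin genes of simple epithelia Krt7, Krt8, Krt18 and Krt19 were 14.1-fold to 87.4-fold lower in the means. Krt8 was at 26.9, 25.8, 24.5 and 29.98 CPM in G7 against 360.3 to 975 CPM (median 818), and its partner Krt18 at 66.03, 61.8, 72.3 and 74.997 CPM against 500.3 to 1315 CPM (median 1156). Both were lower in G7 than in any other library, with log2 fold changes of -4.73 ± 0.38 and -3.84 ± 0.34 SE. Krt7 differed by -6.45 ± 0.25 SE and Krt19, a keratin of ducts, by -4.49 ± 0.62 SE. No count of Krt20 was found in any G7 library, whereas the others held 7.73 to 26.1 CPM (median 14.9), so that Krt20 was at least 418-fold lower when the G7 group is set at a floor of 3 counts. Desmosomal Pkp1 (log2 fold change -7.06 ± 0.81 SE) and the p53 target Perp, a desmosome component (-6.02 ± 0.19 SE), were lower as well, and Pkp1 lost its call with the clone as a block.

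Grhl2, Esrp1, Ehf and Elf3, regulators of the epithelial programme described here as single genes, were also lower in G7. They were not tested as a list. Grhl2, a transcription factor that activates junction genes, was at 4.47, 3.45, 5.32 and 3.997 CPM in G7 against 105 to 135 CPM (median 127). Esrp1, which directs epithelial splicing, was at 1.43, 2.84, 2.66 and 1.89 CPM against 143 to 212 CPM (median 195). Neither pair of ranges overlapped, and the log2 fold changes were -4.84 ± 0.13 SE (adjusted p = 7.60e-15 in edgeR's test) and -6.42 ± 0.20 SE (adjusted p = 4.85e-14). The Ets factors of epithelia Ehf and Elf3 were 42.6-fold and 4.49-fold lower in the means. Rab25, a small GTPase of apical recycling, was at 0.621, 0.121, 0.310 and 0.736 CPM against 6.99 to 22.3 CPM, and the polarity gene Crb3 at 11.5, 14.04, 17.1 and 19.8 CPM against 55.5 to 105 CPM. Prom2, a protein of membrane protrusions, differed by -7.44 ± 0.34 SE on the log2 scale.

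Genes known from renal tubules went both ways. Cdh16, the kidney-specific cadherin of tubules and the other higher member of the adhesion list, was at 857, 838, 876 and 856 CPM in G7 against 326 to 464 CPM (median 365). Pax2 was at 301, 324, 351 and 286 CPM against 73.3 to 168 CPM (median 99.8), and Pax8 at 426, 412, 458 and 411 CPM against 262 to 292 CPM (median 276). All 3 were higher in every G7 library than in any other library, with log2 fold changes of 1.11 ± 0.10, 1.51 ± 0.17 and 0.60 ± 0.05 SE, the last of which was under the size limit for a call. Umod, the gene of uromodulin of the thick ascending limb, had 0 counts in G7 and clone means of 0.956, 9.80 and 0.272 CPM in D8, H12 and A4, and was called lower. Egf, the other tested marker of that segment, was called higher, at 2.36 CPM against 1.03, 1.41 and 0.939 CPM. Summed over the 10 markers of simple epithelium, which include these 3, the level was 1714 to 1837 CPM in G7 and 3875 to 7024 CPM in the others.

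**Figure D1:**
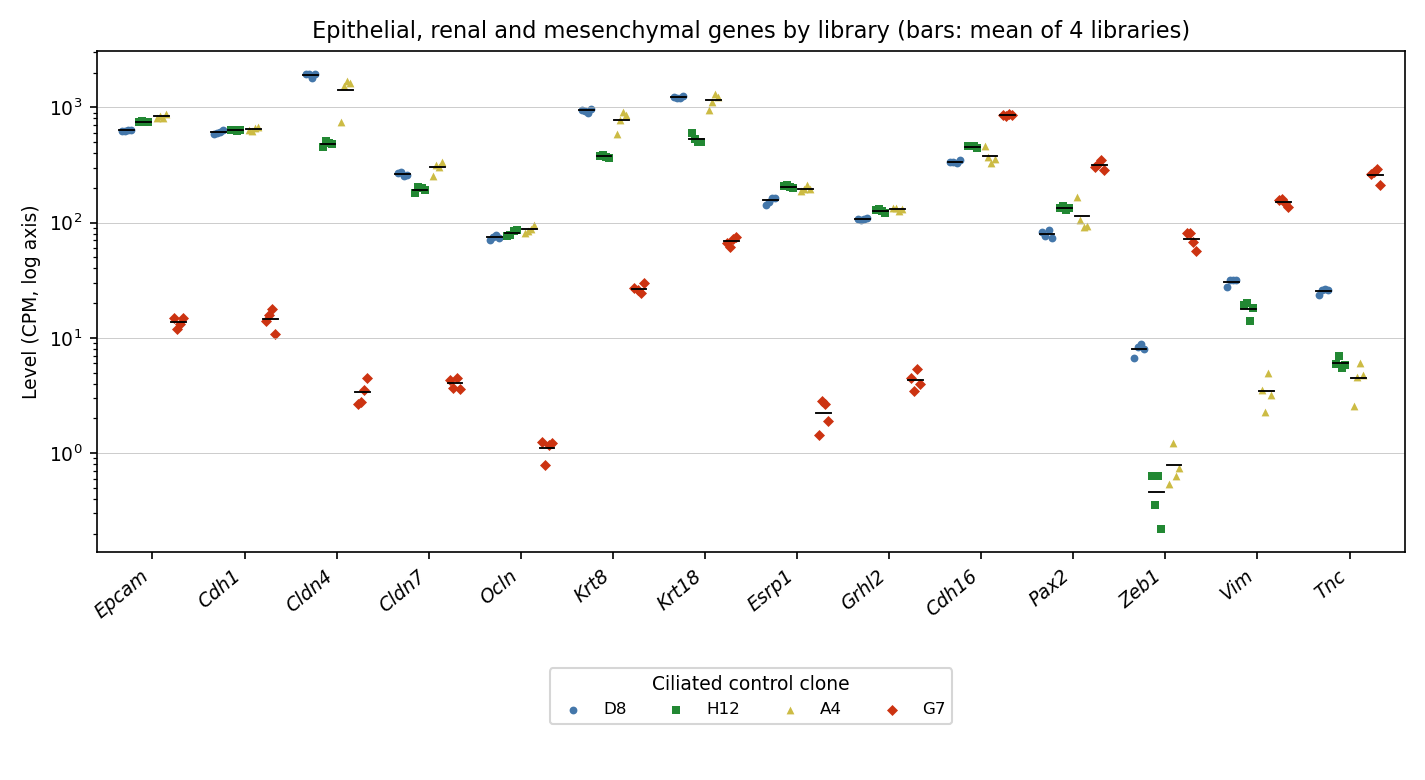
CPM on a log axis for 14 genes, with 1 point per library and a bar at the mean of the 4 libraries of each ciliated control clone. The G7 points lie below those of D8, H12 and A4 from Epcam to Grhl2 and above them for Cdh16, Pax2, Zeb1, Vim and Tnc.

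Zeb1, the repressor of E-cadherin transcription, was at 80.7, 81.9, 67.97 and 56.9 CPM in G7 and 0.219 to 8.92 CPM (median 0.690) in the others. Every G7 library exceeded every other library, although D8 with a mean of 7.98 CPM stood above H12 (0.462 CPM) and A4 (0.787 CPM). The log2 fold change of Zeb1 was 4.54 ± 0.70 SE (adjusted p = 3.84e-05 in edgeR's test). Zeb factors bind the E-box letters CACCTG, read as CAGGTG on the other strand. RefSeq promoter windows of GRCm38.p6, which run from 250 bases before to 50 bases after a start site, were searched for these letters on both strands, and 20.2% of 32851 windows held at least 1 match and 2.88% at least 2. Only 23 of the 40 lower adhesion genes matched the window table, which leaves no ground for a comparison of lists. The windows of 4 lower genes are shown as examples picked because the letters stand in them, so they do not represent the lower genes. Capitals mark the matches, each line reads 5′ to 3′ on the strand of the gene, and a match is a description of letters, not of binding. The Epcam window is chr17:87635729-87636028 (plus strand, with matches at -187 to -182 and -19 to -14 from the start site), the Cldn4 window chr5:134946885-134947184 (minus), the Rab25 window chr3:88548230-88548529 (minus), and the Crb3 window chr17:57061951-57062250 (plus, one of 2 windows of the gene).
Epcam: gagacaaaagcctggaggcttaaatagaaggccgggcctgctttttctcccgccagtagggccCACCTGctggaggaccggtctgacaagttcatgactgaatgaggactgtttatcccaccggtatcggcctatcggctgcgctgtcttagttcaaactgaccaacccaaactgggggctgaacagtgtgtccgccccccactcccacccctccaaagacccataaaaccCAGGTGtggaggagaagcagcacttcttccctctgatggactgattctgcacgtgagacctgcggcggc
Cldn4: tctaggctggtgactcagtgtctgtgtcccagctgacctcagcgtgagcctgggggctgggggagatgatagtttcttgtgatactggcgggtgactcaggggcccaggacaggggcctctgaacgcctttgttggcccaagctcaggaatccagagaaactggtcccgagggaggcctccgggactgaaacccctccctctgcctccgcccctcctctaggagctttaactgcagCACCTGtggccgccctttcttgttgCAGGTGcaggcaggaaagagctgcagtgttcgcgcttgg
Rab25: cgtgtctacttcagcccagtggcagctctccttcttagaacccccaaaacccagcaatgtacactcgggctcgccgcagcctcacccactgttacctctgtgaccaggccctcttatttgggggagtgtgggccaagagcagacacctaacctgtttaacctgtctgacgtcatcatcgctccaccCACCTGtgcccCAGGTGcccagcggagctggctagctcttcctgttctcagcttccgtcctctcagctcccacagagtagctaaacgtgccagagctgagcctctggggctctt
Crb3: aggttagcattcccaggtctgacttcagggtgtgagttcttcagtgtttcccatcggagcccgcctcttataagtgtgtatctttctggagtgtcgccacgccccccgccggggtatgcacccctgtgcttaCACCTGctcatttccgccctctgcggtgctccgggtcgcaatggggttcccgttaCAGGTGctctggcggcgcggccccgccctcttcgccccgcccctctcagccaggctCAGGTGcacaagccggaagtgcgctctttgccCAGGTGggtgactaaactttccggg

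Of 15 tested mesenchymal genes 6 were higher and 2 lower in G7 (all genes, 5.27% and 12.9%), 4 and 0 with the clone as a block, with a median log2 fold change of 0.81. Vim, the intermediate filament of mesenchymal cells, was at 158, 162, 149 and 136 CPM in G7 and 2.27 to 31.9 CPM (median 18.5) in the others, and the matrix protein gene Tnc at 264, 277, 289 and 210.02 CPM and 2.54 to 26.7 CPM (median 6.05). Neither range overlapped, and the log2 fold changes were 3.11 ± 0.50 SE (adjusted p = 6.41e-05 in edgeR's test) and 4.41 ± 0.49 SE (adjusted p = 1.00e-06). Postn, which encodes the matricellular protein periostin, gave 29.7, 31.96, 31.6 and 26.2 CPM in G7 and 1 count in all 12 other libraries together. Fitting that single count gave a log2 fold change of 11.31 ± 0.26 SE. The ratio of the G7 mean to the pooled level of the 12 other libraries had a 95% counting interval of 1135 to 249780.00. Fn1, the fibronectin gene, lay on the other side, at 509.8, 542, 587 and 405 CPM against 496 to 3743 CPM with overlapping ranges, since H12 had a mean of 511 CPM and D8 of 3494 CPM. The calls of Fn1 (log2 fold change -1.86 ± 0.63 SE), Zeb2 (1.71 ± 0.58 SE) and Snai1 (-1.83 ± 0.74 SE), which encode fibronectin and a pair of E-box repressors, were lost in several fits without 1 replicate, and all 3 were lost with the clone as a block. Without clone D8 the log2 fold change of Fn1 was -0.99, and Zeb2 lost its call without H12 and without A4, with an adjusted p of 0.0641 and 0.0604 in edgeR's test.

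Markers of other cell types were read beside these values. The 9 stromal markers summed to 138 to 161 CPM in G7 and 9.74 to 31.7 CPM in the others, with Foxd1 and Postn as the main terms, while Col1a2, Col3a1 and Pdgfra had 0 counts in G7. Dcn was also higher and Col1a1 lower, so that 3 of the 4 tested stromal markers were higher. Sums over 8 proximal tubule markers were 322 to 556 CPM against 16.3 to 37.2 CPM, almost wholly from Lrp2, and Slc34a1, Slc22a6, Slc5a12 and Hnf4a had 0 counts in all 16 libraries. Endothelial markers summed to at most 1.47 CPM in G7 and smooth muscle markers to at most 0.605 CPM. The 5 podocyte markers summed to 161 to 191 CPM in G7 and 169 to 224 CPM in the others. Podxl was called lower, at a mean of 15.3 CPM against 135, 62.4 and 112 CPM in D8, H12 and A4. Synpo had a log2 fold change of 0.82, under the size limit for a call. Leukocyte markers summed to 301 to 323 CPM in G7 and 165 to 300 CPM in the others, of which Csf1r made up most, while Ptprc had 3 counts, Lyz2 and Cd3e 0 counts in G7. Csf1r (log2 fold change 0.54) and Cd14 (-0.80) were not called. Cd68 was called lower, at a mean of 1.06 CPM against 3.82, 2.25 and 1.96 CPM in D8, H12 and A4. Of the principal cell markers that define the collecting duct in tissue, Aqp2 had 0 counts in all 16 libraries, and 6 of the 7 were under 1 CPM in G7. The 2 tested ones were both called, with Hsd11b2, which inactivates cortisol, lower at a mean of 0.776 CPM against 8.06, 3.45 and 2.66 CPM in D8, H12 and A4, and the sodium channel subunit Scnn1g higher at 1.35 CPM against 0.249, 0.709 and 0.457 CPM. The other 5 were at or under 1.11 CPM in the mean of every ciliated control clone. Gata3 among them was at 2.86 CPM in the ciliated Wdr34 clone numbered 3. Their part in the differences was not tested further.

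Genes of the basement membrane and its receptors were read as 2 lists. Of 24 tested integrin and laminin genes 10 were lower and 3 higher, and 9 and 3 were with the clone as a block. Of 17 tested collagen genes 7 were lower and 1 higher, with 2 and 1 under the clone block. Over all genes 12.9% were lower and 5.27% higher without that block. Lama3 and Lamb3, which encode laminin chains under anchored epithelia, were both lower. Lama3 was at 0.496, 0.605, 0.248 and 0.491 CPM in G7 against 25.4 to 142 CPM (median 67.8), and Lamb3 at 0.248, 0.424, 0.681 and 1.02 CPM against 62.4 to 113 CPM (median 77.9). No G7 library overlapped the others for either gene, and the log2 fold changes were -7.26 ± 0.74 and -7.02 ± 0.29 SE. The laminin receptor encoded by Itga6 and Itgb4 was lower by -2.39 ± 0.25 and -3.17 ± 0.14 SE, and Itgb6, an epithelial integrin subunit that activates latent TGF-beta, by -3.86 ± 0.29 SE. In the opposite direction the collagen receptor subunit Itga1 was at 306, 310.3, 292 and 199 CPM in G7 and 17.8 to 37.4 CPM in the others (log2 fold change 3.36 ± 0.17 SE, adjusted p = 4.35e-11 in edgeR's test). Col4a3 and Col4a4, head-to-head genes of the type IV collagen network, were 24.7-fold and 14.2-fold lower, and Col7a1 of anchoring fibrils was lower by -5.96 ± 1.02 SE but lost its call with the clone as a block. The fibrillar collagen gene Col5a1 was at 24.02, 25.6, 28.7 and 23.7 CPM against 0.456 to 4.80 CPM.

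Cadherins and protocadherins went both ways. With Cdh1 and Cdh16 included, 7 of 23 tested genes were higher and 5 lower, against 5.27% and 12.9% of all genes, and 5 of each were with the clone as a block. Cdh17 and Pcdh1 were 76.8-fold and 35.1-fold lower, and Cdh6, a cadherin of the developing tubule, was 2.72-fold lower. Pcdhb16, one of a cluster of similar protocadherin genes whose reads may be shared, was higher (1.90 ± 0.17 SE). Of 32 matrix proteases and inhibitors 16 were lower and 5 higher, beside 12.9% and 5.27% of all genes. Only 4 were lower and 5 higher with the clone as a block, and with libraries summed 1 was lower. Plau, the gene of urokinase, was at 5.96, 6.36, 5.39 and 6.87 CPM against 57.1 to 137 CPM (median 72.98). All G7 libraries lay below all others for Plau, with a log2 fold change of -3.80 ± 0.29 SE. The membrane metalloproteinase gene Mmp15 was 28.4-fold lower, without a call when the clone was a block. Adam9, a membrane protease, was 2.23-fold higher.

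Regulators of kidney development were divided. Of 31 tested kidney and tubule transcription factors 7 were higher and 7 lower (6 and 5 with the clone as a block), with a median log2 fold change of 0.44. Over all genes 5.27% were higher and 12.9% lower. Foxd1, a marker of renal stroma in the embryo, was at 107, 115, 123 and 133 CPM in G7 and 7.17 to 29.6 CPM (median 16.1) in the others (log2 fold change 2.89 ± 0.29 SE, adjusted p = 2.62e-07 in edgeR's test). Irx3, a tubule patterning factor, was 3.32-fold higher. Sox9, which marks ureteric tips and repairing tubule, was at 1.05, 0.605, 1.73 and 0.701 CPM against 5.57 to 101 CPM (median 24.7). All G7 libraries lay below the lowest other library for Sox9, but the other clones ranged from 11.7 CPM in H12 to 97.8 CPM in D8, and the call was lost with the clone as a block.

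Single tubule receptors and transporters also differed. Lrp2, which encodes megalin, the endocytic receptor of the proximal tubule, was at 429.8, 526, 549 and 316 CPM in G7 and 12.8 to 29.02 CPM (median 23.5) in the others. It was higher in all G7 libraries by 4.37 ± 0.21 SE on the log2 scale (adjusted p = 1.21e-11 in edgeR's test), whereas its partner Cubn, at 3.72, 4.24, 3.59 and 2.42 CPM against 2.11 to 4.54 CPM, was not called (adjusted p = 0.538). Enpep, the gene of glutamyl aminopeptidase of the brush border, was at 1007, 1022, 959 and 775 CPM against 5.95 to 62.4 CPM (median 16.2), a log2 fold change of 5.19 ± 0.51 SE. The sodium pump subunit Atp1b1 was 2.72-fold higher and the potassium channel gene Kcnj16 2.89-fold lower. Over the list of collecting duct water and salt transport 4 of 17 tested genes were higher and 5 lower (all genes, 5.27% and 12.9%), and 3 and 1 were with the clone as a block.

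The second large group of lower genes was that of immediate early and growth factor response genes, which are induced within minutes of ERK signalling or restrain it. Of 32 tested members 26 were lower in G7 and 0 higher, against 12.9% and 5.27% of all genes, and the median log2 fold change was -2.55. The count depended on the clone set beside G7. It was 30 against D8, where 14.7% of all genes were lower, 28 against A4, where 12.7% were, and 16 against H12, where 11.9% were. With the clone as a block 8 members were called lower. With libraries summed edgeR called 0, although 19 of 34 members had an unadjusted p under 0.05. Dusp6, the phosphatase that inactivates ERK, showed the pattern with G7 at 8.998, 8.41, 8.23 and 6.21 CPM and clone means of 444 ± 34.9 (SD, n = 4) in D8, 323 ± 129.6 in A4 and 24.4 ± 1.88 in H12. H12 was therefore low too, and G7 was lower still.

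Etv4 and Etv5, Ets factors downstream of receptor tyrosine kinases, were at 0.496, 0.303, 0.186 and 0.280 CPM and 0.434, 0.0605, 0.310 and 0.351 CPM in G7 against 9.82 to 111 CPM and 3.34 to 21.2 CPM in the others. Dusp5 was at 0.869, 0.545, 0.805 and 1.12 CPM against 10.3 to 137 CPM (median 96.002), and the AP-1 subunit gene Fosl1 at 0.248, 0.484, 0.248 and 0.561 CPM against 1.91 to 74.9 CPM (median 50.4). None of these G7 values overlapped the others. The log2 fold changes of Etv4, Etv5, Dusp5, Dusp6 and Fosl1 ran from -7.58 to -5.08, and all 5 lost the call with the clone as a block. Egr1 was at 168, 173, 182 and 168 CPM against 425 to 1250.1 CPM (-2.45 ± 0.34 SE) and Myc at 30.97, 26.1, 31.9 and 25.4 CPM against 51.4 to 336 CPM (-2.75 ± 0.58 SE), and both were lower in G7 than in any other library. A4 library 1 gave the lowest value of its clone for each of these 7 genes.

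Of 29 tested growth factor ligands and receptors 14 were lower and 4 higher, against 12.9% and 5.27% of all genes, and 11 were not called. The clone block left 8 lower and 2 higher. Leaving out any single G7 library gave 14 lower and 2 higher. Tgfa, a ligand of the EGF receptor, was at 10.5, 7.87, 9.22 and 7.85 CPM against 75.4 to 127 CPM (median 118; log2 fold change -3.63 ± 0.20 SE). The related ligand Areg had 0 counts in G7 and 0.152 to 63.04 CPM (median 28.4) in the others, at least 711-fold lower with a floor of 3 counts for the G7 group, although H12 too had a mean of only 0.361 CPM and the call was lost with the clone as a block. The receptor genes Erbb3 and Egfr were 10.1-fold and 3.22-fold lower without overlap. Igfbp7, an IGF-binding protein, was 7.57-fold lower. Gfra1, the co-receptor of GDNF in the ureteric bud, rose to 51.9, 55.4, 41.97 and 46.3 CPM from 5.10 to 27.03 CPM. Ctgf and Cyr61, targets of YAP and SRF, were 60.2-fold and 2.78-fold lower. In their list 7 of 30 members were lower and 3 higher, against 12.9% and 5.27% of all genes. With the clone as a block 5 were lower and 1 higher. Among p53 targets and cell cycle inhibitors 7 of 26 were lower and 4 higher, against 12.9% and 5.27% of all genes, and the clone block left 5 and 3. Cdkn1a was at 62.2, 59.1, 63.8 and 76.6 CPM against 344 to 479.8 CPM, and the stress gene Sesn1 was 4.80-fold higher. The cyclin gene Ccnd1, not an inhibitor, was at 2.48, 2.97, 1.61 and 1.82 CPM against 17.1 to 95.95 CPM.

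In the hypoxia and glycolysis list 11 of 32 members were lower and 3 higher, against 12.9% and 5.27% of all genes. The numbers lower than D8, H12 and A4 were 14, 6 and 12, where 14.7%, 11.9% and 12.7% of all genes were lower. The Nrf2 and glutathione list had 15 of 37 lower and 1 higher, with 18, 7 and 21 lower than D8, H12 and A4, to be read against the same shares. The clone as a block left 4 lower and 3 higher members in the hypoxia list and 2 lower and 1 higher in the Nrf2 list. Differences between the clone counts were not tested. Hk2, the inducible hexokinase, was at 1.55, 1.57, 2.29 and 2.38 CPM in G7, with means of 390.4, 9.99 and 305 CPM in D8, H12 and A4. The glucose transporter gene Slc2a1 was at 29.8, 27.5, 29.96 and 32.1 CPM against 76.7 to 1155 CPM, and Pfkfb3, which sets the rate of glycolysis, at 0.993, 0.847, 0.371 and 0.771 CPM against 4.82 to 19.08 CPM. All 3 were lowest in G7, and Hk2 lost its call with the clone as a block, as did the mTOR inhibitor gene Ddit4. Hmox1, heme oxygenase, overlapped between G7 (36.99, 33.6, 37.7 and 34.3 CPM) and H12 (mean 32.7 CPM), while D8 and A4 had means of 1146 and 868 CPM. Txnrd1 and Gsr, reductases of thioredoxin and glutathione, were 4.47-fold and 4.41-fold lower without overlap, and Gsta4, one of a family of similar glutathione transferases, was 20.5-fold lower with no call under the clone block.

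**Figure D2:**
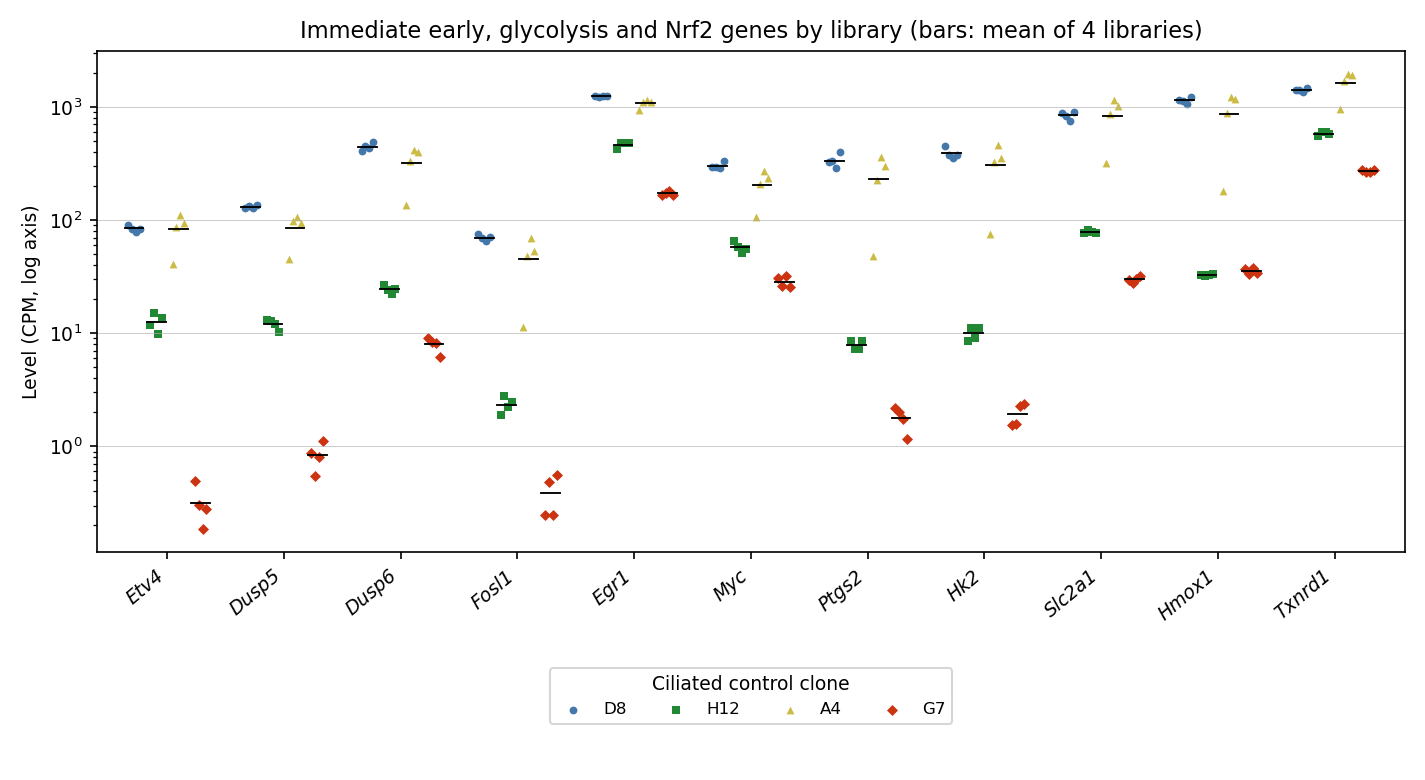
CPM on a log axis for 11 immediate early, glycolysis and Nrf2 genes, with 1 point per library and a bar at the mean of the 4 libraries of each clone. G7 lies lowest for every gene but Hmox1, where it overlaps H12, and for the other genes the H12 mean lies between G7 and the means of D8 and A4.

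Inflammatory mediators were lower for 15 of 33 tested genes, against 12.9% of all genes, and higher for 6. With the clone as a block 7 were lower and 5 higher, and with libraries summed 5 were lower. Lcn2, the iron carrier of injured tubule, was at 0.745, 0.666, 0.310 and 0.701 CPM in G7 and 38.4 to 134 CPM (median 78.5) in the others, and Cxcl16, a membrane-bound chemokine gene, at 3.10, 2.60, 3.405 and 2.49 CPM and 40.5 to 110.4 CPM (median 94.8). Neither overlapped, and the log2 fold changes were -7.07 ± 0.55 SE (adjusted p = 9.21e-09 in edgeR's test) and -4.77 ± 0.38 SE (adjusted p = 1.29e-08). Il1rn, the interleukin-1 receptor antagonist, was 169.96-fold lower. Ptgs2, the inducible cyclooxygenase, was at 2.17, 1.998, 1.73 and 1.16 CPM, against 7.91 CPM in H12, 335 in D8 and 232 in A4, and lost its call with the clone as a block. Interferon-stimulated and antigen presentation genes had 8 members higher and 8 lower of 41, against 5.27% and 12.9% of all genes. With the clone as a block 7 were higher and 2 lower. Against D8, H12 and A4 singly 16, 6 and 9 were higher and 5, 10 and 10 lower. Over all genes these contrasts had 8.71%, 5.5% and 7.98% higher and 14.7%, 11.9% and 12.7% lower. Ifit3 and Ifit2, antiviral effectors with similar sequences, were at 1224, 1217, 1271 and 1333 CPM against 144 to 391 CPM and at 558, 519, 521 and 446 CPM against 77.5 to 161 CPM. The immunoproteasome subunit gene Psmb10 was 4.23-fold higher, while Ifih1, a sensor of viral RNA, was 6.01-fold lower.

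Signalling pathways of development contained members that differed in both directions. Of 43 Wnt and planar polarity genes 12 were lower and 6 higher (all genes, 12.9% and 5.27%), which became 5 lower and 6 higher with the clone as a block. Wnt10a had 0 counts in G7 against 10.3 to 17.2 CPM (median 13.7), at least 359-fold lower. Wnt7b, the ureteric ligand for medulla growth, was at 10.7, 13.3, 16.5 and 15.4 CPM against 326 to 563 CPM (median 509; log2 fold change -5.09 ± 0.23 SE). Wnt7a was 152-fold and the receptor gene Fzd1 43.4-fold lower, both without a call under the clone block. Wnt16 was at 196, 193, 220.02 and 245 CPM in G7 and 5.01 to 63.9 CPM in the others, and Fzd4 was 3.78-fold higher. G7 thus had less of 3 Wnt ligand transcripts and more of another.

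Of 41 TGF-beta and BMP genes 11 were higher and 8 lower, against 5.27% and 12.9% of all genes, and 10 and 6 were with the clone as a block. Smad9, a BMP-responsive Smad, was at 16.2, 16.2, 19.7 and 12.9 CPM in G7 and at most 0.203 CPM in D8, H12 and A4. Id3, a classic BMP target, was at 86.6, 82.4, 86.2 and 101 CPM against 1.78 to 10.002 CPM (median 3.004; log2 fold change 4.23 ± 0.38 SE, adjusted p = 7.54e-08 in edgeR's test). Bmp4 was 3.49-fold higher and Bmp7, a ligand of the ureteric epithelium, 45.2-fold lower. The co-receptor gene Tgfbr3 was 6.15-fold higher and the inhibitory Smad7 3.46-fold lower. Of 13 hedgehog genes, a pathway read at the cilium, 5 were higher and 1 lower, where 5.27% and 12.9% of all genes were. The clone block left 4 higher and 0 lower, DESeq2 called 4 and 2, and without G7 library 1 or 2 the counts were 4 and 0. Gas1, a co-receptor of hedgehog ligands, was at 377, 391, 441 and 399.9 CPM against 0.603 to 28.3 CPM (median 19.5), the receptor and target gene Ptch1 at 51.4, 55.02, 55.9 and 53.2 CPM against 14.4 to 26.3 CPM, and the transcription factor gene Gli2 at 17.3, 18.3, 18.5 and 15.8 CPM against 2.05 to 5.48 CPM. No ranges overlapped for these 3, with log2 fold changes of 4.74 ± 0.64, 1.42 ± 0.13 and 2.24 ± 0.19 SE, and the secreted Scube3 was 6.28-fold higher. Of 23 Notch genes 6 were lower and 0 higher, against 12.9% and 5.27% of all genes, and 3 were lower with the clone as a block. The receptor gene Notch3 was at 1.18, 0.545, 1.49 and 0.701 CPM against 48.7 to 77.7 CPM (median 63.9), and the modifier Lfng and the target Nrarp were 4.40-fold and 3.66-fold lower.

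Guidance molecules, which also act at epithelial borders, were lower for 18 of 47 genes and higher for 5, against 12.9% and 5.27% of all genes. The ephrin receptor genes Epha1 and Epha2 were 19.6-fold and 7.79-fold lower, Slit2, a secreted repellent, was at 5.90, 6.05, 6.87 and 2.88 CPM against 13.8 to 136 CPM, and the netrin receptor gene Unc5b was 5.43-fold lower. The netrin gene Ntn1 and the semaphorin gene Sema5a were 2.65-fold and 3.49-fold higher. With the clone as a block 13 guidance genes were lower and 6 higher. Among regulators and receptors of G proteins 13 of 28 were lower, against 12.9% of all genes, and 3 higher. The clone block left 6 lower and 2 higher, and summed libraries 2 lower.

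Sterol and fatty acid synthesis genes were higher for 11 of 35 tested members and lower for 0 against the 12 libraries, where 5.27% of all genes were higher. Of the 35 members 33 had a positive log2 fold change, and the median was 0.76. Against the single clones 15, 9 and 13 were higher than in D8, H12 and A4, and 0, 1 and 0 lower. With the clone as a block the count was again 11 higher and 0 lower. Scd1, which desaturates fatty acids, was at 226, 225, 217 and 183 CPM in G7 and 53.9 to 65.9 CPM (median 60.9) in the others (log2 fold change 1.80 ± 0.06 SE, adjusted p = 2.28e-13 in edgeR's test). Acat2, Dhcr7 and Lss, of the sterol route, were 2.74-fold, 2.66-fold and 2.59-fold higher, and Hmgcs1, an early enzyme of that route, was at 1483, 1558, 1375 and 1210.1 CPM against 455 to 694 CPM. All 4 G7 libraries lay above all others for each of these 5 genes. With libraries summed 1 member of the list was called.

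Genes with the largest single differences stood outside the lists in part. Among 263 higher and 532 lower genes that were called against all clones, did not overlap and reached 10 CPM in the higher group, 15 were taken in each direction. Beside Postn and Smad9 the higher set held Rassf9, a vesicle-associated protein gene, at 33.3, 32.3, 34.5 and 28.9 CPM against at most 0.211 CPM. It also held the ubiquitin ligase gene Pdzrn3, at 39.5, 34.3, 39.7 and 33.4 CPM against at most 0.406 CPM, and the sulfotransferase genes Chst15 and Chst1, 176-fold and 83.01-fold higher. Lifr, the receptor of leukaemia inhibitory factor, was at 266, 272, 247 and 159.8 CPM in G7 and 0.592 to 4.61 CPM in D8, H12 and A4. Ppargc1a, the coactivator of mitochondrial biogenesis, was at 167, 162, 146 and 116 CPM and 0.110 to 5.89 CPM. Neither overlapped, and the log2 fold changes were 6.26 ± 0.34 and 6.08 ± 0.62 SE. Masp1 and C1s1, complement proteases of which C1s1 has a near copy, were 101-fold and 55.8-fold higher. The prostaglandin D synthase gene Hpgds was 47.999-fold, the neuropeptide Y receptor gene Npy2r 79.6-fold, the transcription factor gene Atoh8 63.7-fold, the glycosyltransferase gene Galnt18 105-fold and Ctxn3 147-fold higher.

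In the lower set, 6 genes had no count in any G7 library. Beside Krt20 and Wnt10a these were the irritant channel gene Trpa1, with 12.1 to 32.3 CPM in the others, the ceramide-related Nipal4 with 3.67 to 30.2 CPM, the sialomucin gene Cd34 with 4.94 to 25.5 CPM and the cytokine gene Il24 with 1.33 to 27.3 CPM. They were at least 502-fold, 409-fold, 347-fold and 345-fold lower with a floor of 3 counts for the G7 group. Prss22, a serine protease gene, had 1 count in G7, for a ratio of the others to G7 with a 95% counting interval of 479 to 105431, and 5830416P10Rik had 2 counts (209 to 6232). The transmembrane protease gene Tmprss2 was at 0, 0.182, 0 and 0.0351 CPM against 10.3 to 78.3 CPM, the autophagy gene Atg9b at 0.683, 0.182, 0.495 and 0.386 CPM against 97.6 to 202 CPM, and the interleukin-18 receptor gene Il18r1 at 0, 0.303, 0.0619 and 0.175 CPM against 23.4 to 64.8 CPM. No G7 library reached the lowest of the others for any of them. Foxq1, a forkhead factor, Syt8, a synaptotagmin, and Sprr1a, a cornified envelope protein, completed the set with log2 fold changes of -7.84 ± 0.74, -7.75 ± 0.79 and -8.02 ± 1.99 SE. Nipal4, Il24, Prss22, 5830416P10Rik, Tmprss2, Foxq1 and Sprr1a lost the call with the clone as a block, among 31 of 185 named genes that did so.

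Programmes of growth and of the cilium showed few calls. Of 40 mitosis genes edgeR and DESeq2 called 0, and of 40 replication genes 0. These lists had 29 and 19 members with an unadjusted p under 0.05. In edgeR's test 28 and 18 had an adjusted p under 0.05, with log2 fold changes under the size limit for a call. Median log2 fold changes of the lists were 0.43 and 0.087. In them 38 and 27 members had a positive log2 fold change. Without clone H12, 2 mitosis genes were higher and 1 replication gene was lower, and without G7 library 4, 1 mitosis gene was higher. Against D8, H12 and A4 singly 3, 0 and 1 mitosis genes were higher and 1, 0 and 1 replication genes lower. Of 73 cilia genes 0 were higher and 2 lower, against 5.27% and 12.9% of all genes. An adjusted p under 0.05 in edgeR's test was reached by 27 of the 73. Pkhd1, the gene of recessive polycystic kidney disease, was at 53.6, 58.3, 56.5 and 45.3 CPM in G7 against 101 to 136 CPM (-1.19 ± 0.10 SE), and the ciliary kinesin gene Kif17, at 0.186, 0.484, 0.619 and 0.421 CPM against 0.579 to 1.82 CPM with overlap, lost its call with the clone as a block. Of 70 Golgi and vesicle transport genes 2 were higher and 3 lower, against 5.27% and 12.9% of all genes. In edgeR's test 29 of the 70 had an adjusted p under 0.05. Among the lower ones was Myo5b, the motor of apical recycling, at 5.03, 4.90, 2.91 and 2.45 CPM against 101 to 216 CPM (median 165). Its log2 fold change was -5.42 ± 0.33 SE. Oxidative phosphorylation subunits had 1 member higher and 1 lower of 74, against 5.27% and 12.9% of all genes. In edgeR's test 47 had an adjusted p under 0.05. Of the 74, 68 had a positive log2 fold change, and the median of the list was 0.49. Leaving out G7 library 1, 2, 3 or 4 gave 3, 6, 3 and 0 higher members, and leaving out H12 or A4 gave 3. In edgeR's test 29 of 76 ribosomal protein genes had an adjusted p under 0.05. Of the 76, 5 were called lower and 0 higher, against 12.9% and 5.27% of all genes. The median log2 fold change of the list was -0.39, beside the lower ribosomal share of the first 3 G7 libraries. The clone block left 0 of these calls, and without G7 library 4 the count was 11, without G7 library 2 it was 3, without clone H12 10 and without clone D8 3. Of 9 tested transcripts kept as signs of RNA quality edgeR called 0 and DESeq2 1. Among them 5 had an unadjusted p under 0.05, and 4 an adjusted p under 0.05 in edgeR's test. Their median log2 fold change was 0.50, and against D8 alone 5 were higher, with a median of 1.18, whereas 0 were higher than in H12 and 2 than in A4.

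**Figure D3:**
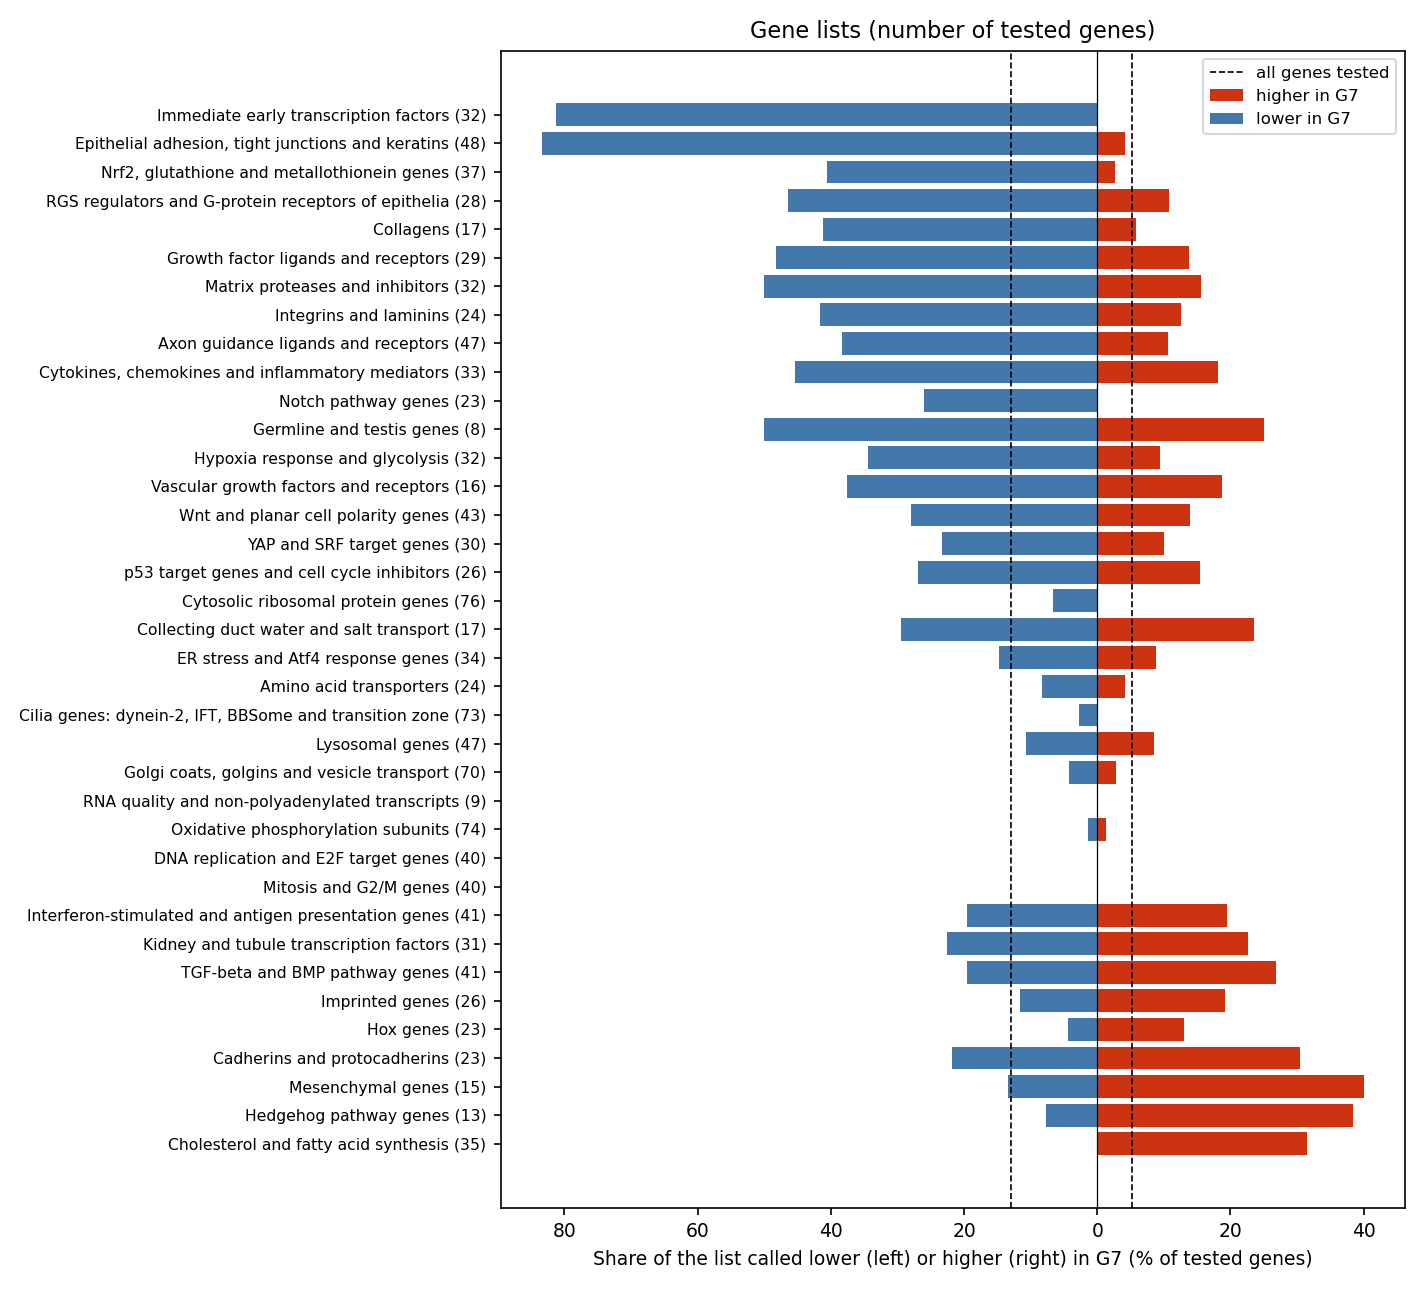
Share of the tested genes of each list that was called lower (left, blue) or higher (right, red) in G7, in percent, with dashed lines at the shares over all genes, 12.9% and 5.27%. The epithelial and immediate early lists reach furthest to the left, and the mitosis, replication and cilia lists have bars near 0.

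Called genes lay on many chromosomes, and chromosome 1 had the lowest median. The median log2 fold change of its 676 tested genes was -0.50, whereas the medians of the other chromosomes lay between -0.15 (chromosome 5) and 0.16 (chromosome 6). On chromosome 1, 155 genes (22.9%) were lower and 16 higher, and 83.7% of tested genes had a negative log2 fold change, against 48.3% elsewhere. The median was -0.53, -0.37 and -0.53 against D8, H12 and A4, and -0.37 over the 505 genes of the chromosome that were not called. Windows of 20 Mb along it had medians from -0.59 to -0.41, so that no window carried the difference alone. Library by library, the median of chromosome 1 was -0.58 to -0.45 in G7 and -0.11 to 0.09 in the others. Shifts of whole chromosomes were also present in other control clones. The library medians of chromosome 3 were -0.32 to -0.27 in D8 and 0.28 to 0.34 in H12, those of chromosome 6 were -0.29 to -0.26 in H12, and against H12 alone the median of G7 was 0.49 on chromosome 6 and -0.37 on chromosome 1. DNA was not measured here. Lamb3, Col4a3, Col4a4, Elf3, Pkp1, Ptgs2, Wnt10a and Trpa1 lie on this chromosome, each with a difference larger than its median, whereas Atp1b1 and Gli2 lie there too and were higher.

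**Figure D4:**
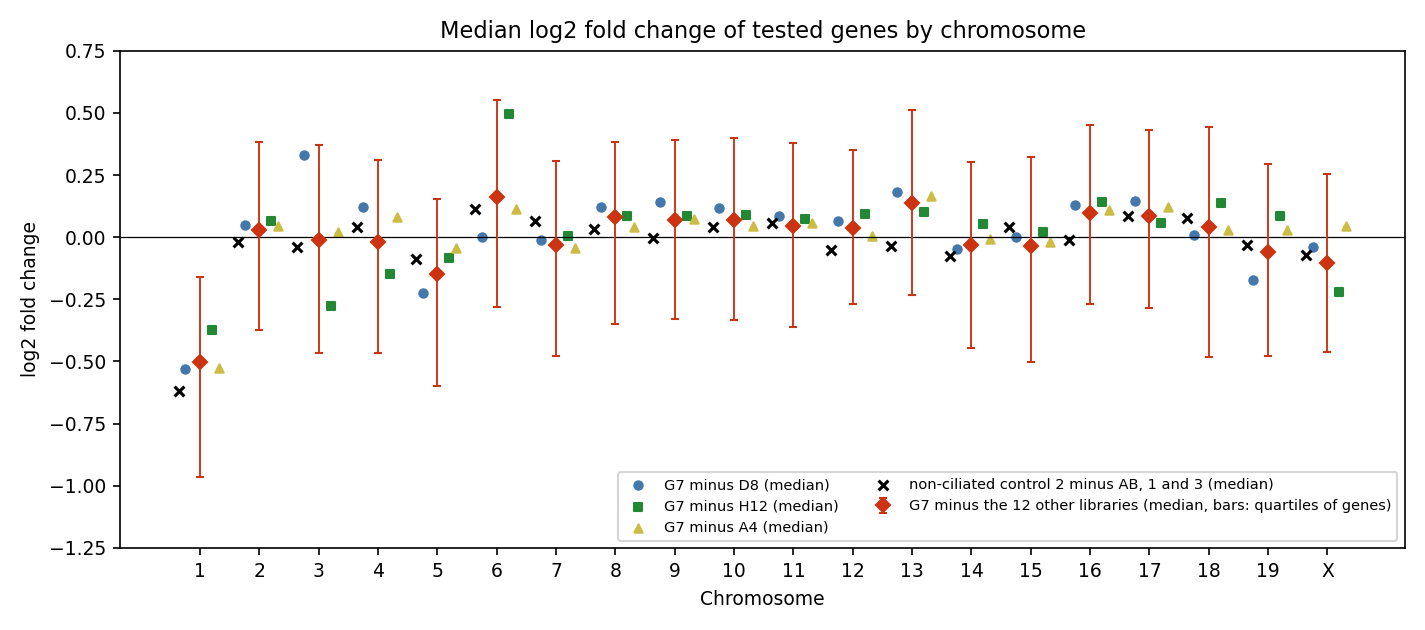
Median log2 fold change of tested genes for each chromosome, with red diamonds for G7 minus the 12 other libraries (bars give the quartiles of genes), coloured points for G7 minus each single clone and crosses for non-ciliated control 2 minus the other non-ciliated controls. Chromosome 1 lies at -0.50 for G7 and -0.62 for non-ciliated control 2, below every other chromosome.

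The series also holds 4 control clones of cells that were not ciliated, labelled AB, 1, 2 and 3, with 4 libraries each and none shared with the comparison above. This comparison was chosen after the values had been seen. In the same kind of test non-ciliated control 2 against AB, 1 and 3 gave 552 genes higher (4.48%) and 1034 lower (8.39%) of 12327 tested. Of the genes higher in G7 than in each of D8, H12 and A4, 373 were tested here. In control 2, 196 of them were higher, which is 52.5% of the 373 and 35.5% of the 552. With AB, 1 or 3 set against the other non-ciliated controls, 5, 1 and 0 of the 373 were higher and 103, 10 and 50 lower. Of 921 tested genes that were lower in G7 than in each of D8, H12 and A4, 606 were lower in control 2. They were 65.8% of the 921 and 58.6% of the 1034. For AB, 1 and 3 the numbers lower were 18, 27 and 2 and the numbers higher 135, 6 and 51. Over 12027 genes the log2 fold changes of G7 and of control 2 had a Pearson r of 0.81, given as a description, since genes share libraries. The r with G7 was -0.40 for AB, 0.067 for control 1 and -0.45 for control 3. The labels do not say whether any ciliated and non-ciliated clone is the same clone.

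Epithelial genes were low in non-ciliated control 2, with 37 of 49 tested members lower, against 8.39% of all genes. Epcam was at 2.89 ± 0.512 CPM (SD, n = 4) in control 2, Cldn4 at 9.63 ± 0.949 and Krt20 at 0, and Zeb1 was at 82.7 ± 3.63 CPM. Chromosome 1 had a median log2 fold change of -0.62 in control 2 against AB, 1 and 3. Immediate early genes were divided in control 2, with 6 of 33 higher and 7 lower, against 4.48% and 8.39% of all genes. Of the 7 genes described for G7, Etv4 (log2 fold change -3.05), Etv5 (-4.67), Dusp5 (-2.05), Fosl1 (-1.24) and Myc (-1.42) were lower in control 2, Egr1 was higher (1.09), and Dusp6 was not called (0.059). Sterol synthesis genes had 0 of 35 higher and 1 lower. The list counts of both comparisons are set side by side, and their differences were not tested.

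Among the ciliated clones with edited genes, one Wdr34 clone, numbered 3 in the labels, shared part of the pattern. Epcam was at 286 ± 7.21 CPM in it, Cdh1 at 300.02 ± 5.14 and Krt8 at 76.5 ± 4.22 (SD, n = 4). Zeb1 was at 67.2 ± 4.38 CPM, close to the G7 mean of 71.9, and Enpep and Lifr were at 626 ± 5.42 and 96.9 ± 2.86 CPM. Its Epcam and Cdh1 levels lay between those of G7 and of D8, H12 and A4. Tnc was at 225 ± 26.6 CPM and Wnt16 at 250.3 ± 10.7 CPM, near the G7 means of 259.96 and 214 CPM. Cldn4, at 196 ± 10.8 CPM, was below all ciliated clones but G7. No test was made between this clone and G7.

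**Figure D5:**
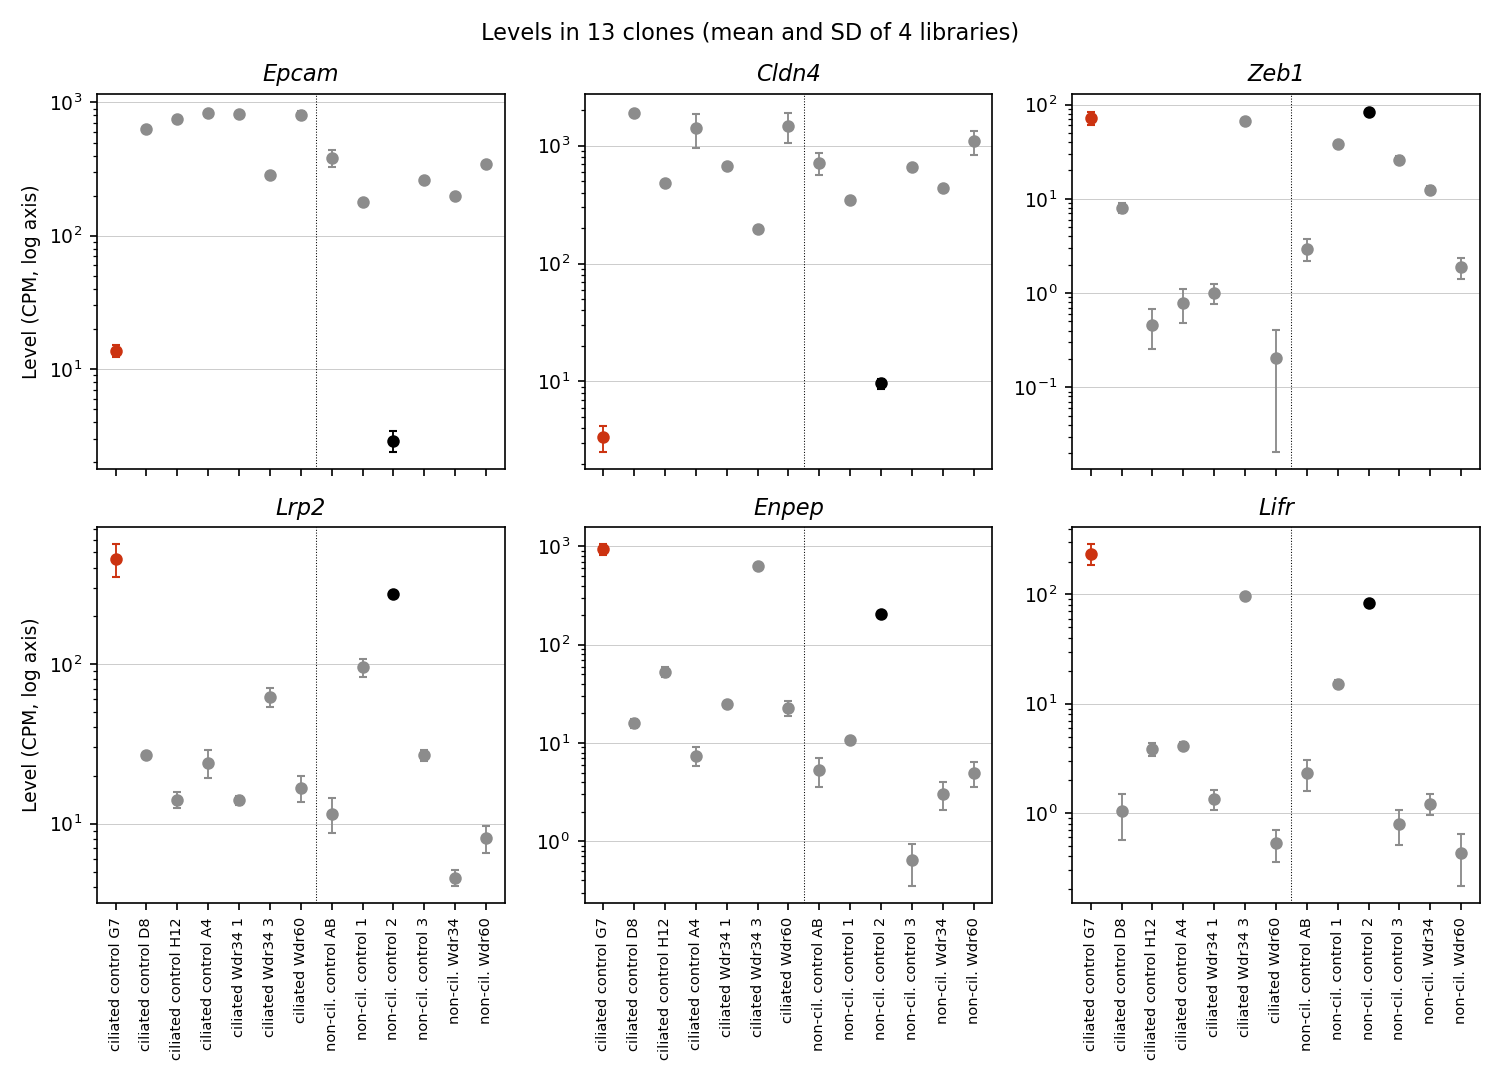
CPM on a log axis for Epcam, Cldn4, Zeb1, Lrp2, Enpep and Lifr in all 13 clones, with points at the mean and bars at the SD of 4 libraries (the lower bar of Zeb1 in the ciliated Wdr60 clone is drawn shorter than its SD). G7 (red) and non-ciliated control 2 (black) have the lowest Epcam and Cldn4 and the highest Zeb1 and Lrp2 of the 13, while for Enpep and Lifr the ciliated Wdr34 clone 3 stands with them.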

How the data were processed

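RNA was sequenced from mouse cells on libraries made with a SMARTER mRNA-Seq kit, and 16 libraries of 4 ciliated control clones were compared, with the other libraries of the series for description. The authors aligned reads to GRCm38/mm10 with Rsubread in R 3.4.4 and deposited raw featureCounts counts per gene symbol without normalization, the strand and multi-mapping settings not being given in the sources used here. Reads shared by overlapping genes or near copies are therefore uncertain. The authors tested with DESeq2 1.18.1. Of 24421 symbols, 24300 (99.5%) matched RefSeq genes of GRCm38.p6, which gave coordinates and promoter windows.

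Counts were tested in R 4.3.3 with edgeR 4.0.16 (filterByExpr defaults, TMM, estimateDisp, glmQLFit, glmQLFTest, 2-sided, Benjamini-Hochberg adjustment over all genes tested). SE is the size of the log2 fold change divided by the root of F. The procedure was tested on simulated data with no clone effect or a small one, so that test does not cover the spread between these clones. Floors of 3 counts over a group and 95% Poisson intervals cover counting error only. Totals of 14816218 to 28084979 make 1 CPM equal to 14.8 to 28.1 counts.

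Named genes were called against all clones in 1 direction, did not overlap between G7 and the others and reached a mean of 10 CPM: the 15 largest log2 fold changes in each direction, and up to 4 per list and direction. Cell type markers, Wdr34 and Wdr60 were added. The clone, the lists and the tests were chosen with earlier results of these data known, and Enpep, Ocln, Esrp1, Krt7, Rab25, Crb3, Dusp6, Egr1, Myc, Areg, Egfr, Hmox1, Fn1, Zeb2, Snai1, Itga6, Itgb4, Hmgcs1, Kif17, the non-ciliated comparison, the chromosome 1 windows and the motif were picked after values were seen. Alternatives were DESeq2 1.42.0, RLE size factors, other filters and thresholds, summed libraries, voomLmFit (limma 3.58.1) with the clone as a block, a replicate block, and leaving out libraries or clones. Some named genes are not reported here.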

Additional observations from a re-analysis of the deposited data

Results flagged for a closer look

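Among 155 quantities examined over the 4 G7 libraries, 12 had 1 library far from the other 3, where chance gives about 1 in 20. G7 library 4 stood apart in its total of 28084979 counts, in the 14123 genes detected and in the share of ribosomal protein genes, 1.26%. The same library was lowest for Itga6 (18.8 CPM), Itga1 (199 CPM), Gsr (122 CPM), Tgfbr3 (214 CPM) and Chst15 (30.4 CPM) and highest for Wdr60 (25.4 CPM). G7 library 2 stood apart for Ocln (0.787 CPM), for Prss22 (0.0605 CPM, its 1 count) and for Syt8 (0 CPM). Each of these genes but Wdr60 was called in G7, and without G7 library 4 edgeR called 653 genes higher and 1605 lower.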

How the results depend on the processing

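Between 13476 and 14358 genes had a count in a library, and low genes are limited by 14.8 to 28.1 counts per CPM. One clone stands for G7, so no alternative replaces a second clone. The count of genes higher and lower in G7 was 637 and 1634 with DESeq2 and 642 and 1602 with RLE size factors. Without the size limit 3150 were higher and 3296 lower, and 2236 and 2207 against each clone. With the libraries of a clone summed 91 were higher and 242 lower, with an unadjusted p under 0.05 for 2550 of 13818 genes (18.5%), and with the clone as a block in voomLmFit (correlation within a clone 0.666) 532 and 727. These fits lost 116 and 31 calls among 185 named genes, and the cause was not tested. Under the clone block Cubn, not called in any fit, turned to a log2 fold change of -0.15. A limit of 2 left 20 genes above and 303 below all ciliated clones. Without one replicate number in all clones 609 to 664 genes were higher and 1445 to 1537 lower (384 to 424 and 926 to 992 against each clone), and without one G7 library 624 to 653 and 1513 to 1605. Without D8, H12 or A4 the counts were 627 and 1425, 852 and 1658, and 620 and 1596. Same-numbered libraries correlated at -0.03 to 0.07, and 1 of 4 G7 libraries correlated best with its own number, so the numbers do not pair libraries. With a replicate block 630 genes were higher and 1540 lower, and 408 and 974 against each clone.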
